A study of Mus musculus with 24 samples.

Results

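Untreated MIN6 cells in which miR-146a-5p was inhibited (ZIP) were compared with untreated MIN6 cells carrying a scrambled control (Scr), on 4 RNA-seq libraries of each line. These 8 libraries were chosen by their labels from the 24 of the series. The series also held the overexpressing line (OE) and the 3 lines with proinflammatory cytokines. The cytokines were IL-1β, IFNγ and TNFα, given together for 24 h. MIN6 cells descend from a mouse insulinoma and keep many β cell traits. ZIP cells carried a lentiviral vector that expresses an anti-miRNA against miR-146a, and Scr cells the same vector type with a scrambled sequence. Both vectors held copGFP as a reporter, and both lines had been selected with puromycin and expanded from single picked clones screened for miR-146a-5p by qRT-PCR. Vector and clone therefore changed together, and a difference caused by the inhibitor and one that the clones already had cannot be told apart. By the study's own qRT-PCR, the level of miR-146a-5p in untreated ZIP cells did not differ from that in Scr. With cytokines, the study reported a far smaller rise of miR-146a-5p in ZIP than in Scr, each against its own untreated cells. These libraries give no level of the mature microRNA, and the inhibition itself could thus not be checked in them. The labels number the libraries of each group from 1 to 4, and each number goes with a P tag shared by all 6 groups, whose meaning is not given in the sources used here. Nothing says that the libraries came from separately derived lines, so p values measure only the spread between libraries of a group. That spread was estimated over all 6 groups of the series.

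miR-146a-5p is a short RNA that is induced by inflammatory signals and holds messenger RNAs back by pairing with sites in their 3′ UTRs. Pairing runs mainly through its seed, the bases 2 to 8. Among its best known targets are *Irak1* and *Traf6*, which carry signals from the interleukin 1 and Toll-like receptors to NF-κB. A further target is *Card10*, a scaffold of another route to NF-κB. Pancreatic β cells make insulin, pack it into zinc-rich granules and release it when glucose entering through *Slc2a2* is broken down. Mature β cells keep many genes of other cell types silent.

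The mature sequences of miR-146a-5p (chr11:43374435-43374456, minus strand) and of its sister miR-146b-5p (chr19:46342790-46342811, plus strand) are shown because a vector against one can pair with the other. They are RefSeq sequences on GRCm38.p6, given 5′ to 3′ with the seed in capitals.
mmu-miR-146a-5p: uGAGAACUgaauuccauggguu
mmu-miR-146b-5p: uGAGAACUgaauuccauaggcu

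Sites for this seed in the 3′ UTRs of the 3 targets named above, on mm10, are shown with the bases that match in capitals, which are AGTTCTCA, the complement of the seed followed by an A.
Irak1 site 1, chrX:74015393-74015415, minus strand: agactcagaggtcaaAGTTCTCA
Irak1 site 2, chrX:74015377-74015399, minus strand: gttctcatgcttggaAGTTCTCA
Traf6 site 1, chr2:101697944-101697966, plus strand: accgctctggtgttgAGTTCTCA
Traf6 site 2, chr2:101698008-101698030, plus strand: tccctggaaggcttaAGTTCTCA
Traf6 site 3, chr2:101698820-101698842, plus strand: agtactttggagtctAGTTCTCA
Traf6 site 4, chr2:101701344-101701366, plus strand: ggactttgctactgcAGTTCTCA
Card10 site, chr15:78775583-78775605, minus strand: cacaccctggaatagAGTTCTCA

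Levels are given as CPM, assigned reads scaled to a common library size by TMM. Differences are log2 fold changes of ZIP against Scr, written as log2 change ± standard error from edgeR. Calls needed a 1.5-fold difference and a Benjamini-Hochberg adjusted p value under 0.05 over all 17696 genes tested. Means are given ± SD with n = 4. The 8 libraries held from 28032255 to 36406136 assigned reads, and log2 CPM of 2 libraries correlated across genes at 0.986 to 0.994 within Scr, 0.976 to 0.993 within ZIP and 0.960 to 0.975 between the lines. All 12 β cell markers were present in every library, and their summed level was 27168 to 34891 CPM in Scr and 37503 to 40477 CPM in ZIP. *Gcg*, the glucagon gene, was present at 246, 369, 279 and 259 CPM in Scr and 101, 191, 141 and 304 CPM in ZIP (adjusted p = 0.166). The acinar, duct, endothelial and leukocyte markers, each set summed apart, reached at most 10.7 CPM in any library. Of the 10 acinar markers, 9 were not in the table.

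Some libraries stood apart from the others of their line. The 11 fibroblast and Schwann cell markers in the table, among them *Col1a1*, summed to 36.3, 10.95, 3.31 and 2.73 CPM in Scr and to 88.3, 10.1, 5.83 and 5.48 CPM in ZIP, so replicate 1 was highest in both lines. In ZIP 1, 57 genes reached 3 CPM and 3 times the next library of the line, compared with 20 in Scr 1, 9 in Scr 3, 29 in ZIP 4 and 0 in each of the other 4 libraries. Of the 29 genes in ZIP 4, 13 were interferon-stimulated genes. The part of these libraries in the results was measured by fits without both replicates 1, and without both replicates 1 and ZIP 4.

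**Figure D1:**
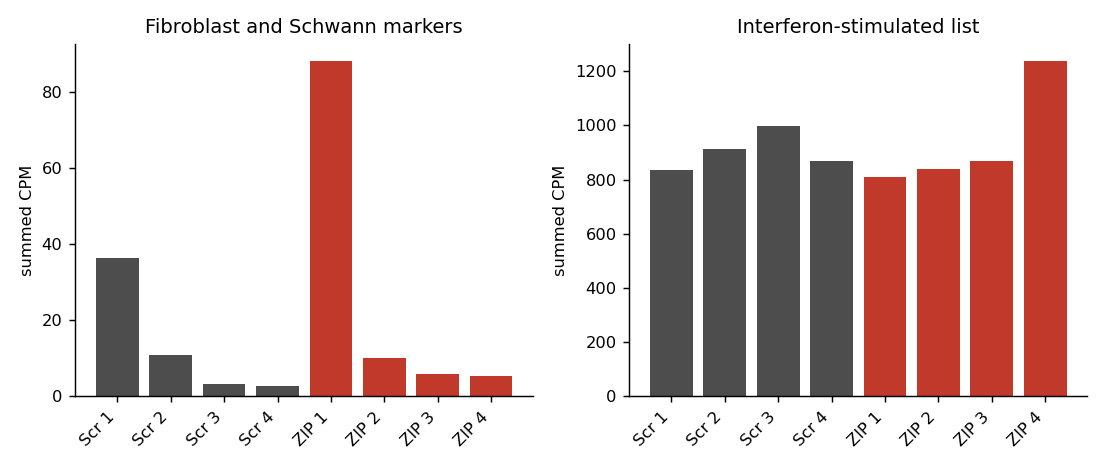
Summed level in CPM (linear axis from 0) in each of the 8 libraries, of the 11 fibroblast and Schwann cell markers (left) and of the 65 interferon-stimulated genes (right), with Scr bars in grey and ZIP bars in red. Replicate 1 was highest on the left in both lines, at 36.3 CPM in Scr and 88.3 CPM in ZIP, and ZIP 4 was highest on the right, at 1239 CPM.

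Of 17696 genes tested, 2155 (12.2%) were called, of which 1113 (6.29%) were higher and 1042 (5.89%) lower in ZIP. A change of at least 8-fold was found for 147 higher and 129 lower genes. Among the called genes, 1936 (89.8%) had all 4 ZIP libraries on one side of all 4 Scr libraries, compared with 27.2% of all genes tested. All Scr libraries had 3 reads or fewer for 140 called genes, and all ZIP libraries for 125. These genes were thus near or below the limit of this depth in 1 of the lines. Without both replicates 1, 1980 genes were called, and 1820 without ZIP 4 as well.

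Distal chromosome 9 was set aside for the gene lists that follow, and counts that keep it are named as such. From 80 Mb to its end, 377 genes were tested, of which 204 were higher and 10 lower in ZIP (56.8% called). The median log2 fold change of the 269 genes at 1 CPM or more was 0.75, with 95.9% above 0. The block held *Myrip*, which links granules to actin and myosin, at 1.29, 0.661, 1.03 and 1.27 CPM in Scr and 11.7, 13.1, 13.4 and 12.9 CPM in ZIP. *Trf*, the transferrin gene, was at 3.91, 3.33, 2.44 and 3.19 CPM in Scr and 15.3, 14.8, 15.5 and 14.04 CPM in ZIP. The other members with the largest rises were *Entpd3*, an enzyme of the cell surface that cleaves nucleotides (log2 change 2.75 ± 0.18, adjusted p = 2.19e-11), and the sodium and proton exchanger *Slc9a9* (log2 change 2.69 ± 0.27, adjusted p = 2.35e-08). With windows of 5 Mb, the block began at 75 Mb and took in 40 more genes, of which 17 were higher and 0 lower in edgeR. That stretch is named below wherever one of its genes is described.

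Outside the block, 17319 genes were tested and 1941 (11.2%) were called, 909 higher (5.25%) and 1032 lower (5.96%). The median over 12329 genes at 1 CPM or more was −0.02. Smaller stretches also moved together, on chromosome 8 between 80 and 100 Mb and on chromosome 19 between 20 and 60 Mb. Their 460 genes held 11 higher and 134 lower calls, and outside every such stretch 898 genes were higher and 898 lower. Gene lists are described below by how many of their members outside the block rose or fell, and each share can be read against 5.25% higher and 5.96% lower. All lists and genes were selected with earlier results of these data known, and members of a list share reads, regions or regulation, so no test was made of a list.

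**Figure D2:**
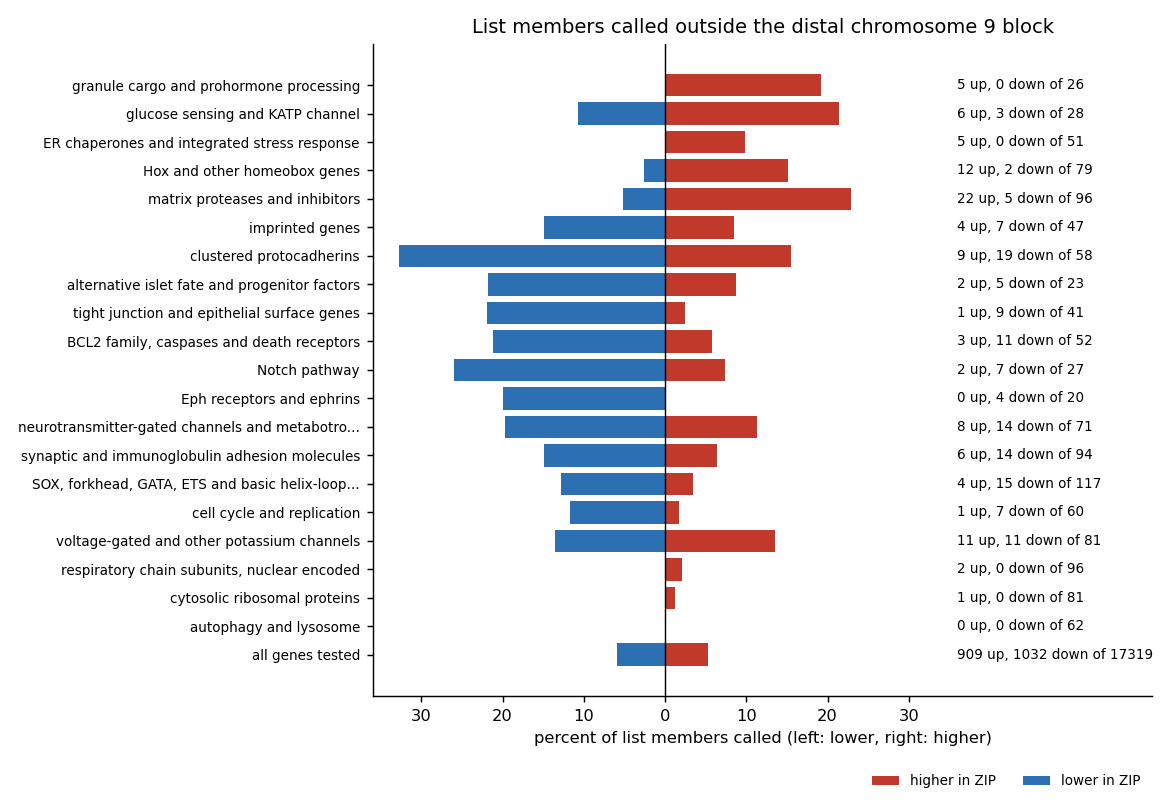
Percent of the members of 20 gene lists called higher in ZIP (red, to the right) or lower (blue, to the left), outside the distal chromosome 9 block, with the counts beside each bar and the shares over all 17319 genes, 5.25% and 5.96%, as the last row. Clustered protocadherins stood at 19 of 58 members lower, and the autophagy list at 0 of 62 called.

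Called genes of insulin granules and of glucose sensing were more often higher than lower in ZIP. Of 14 hormone genes, 2 rose, and of 26 genes for granule cargo and prohormone processing 5 rose. None of either list fell in edgeR, with DESeq2, or at an unadjusted p under 0.05 with the same fold limit. The median of the 24 granule cargo genes at 1 CPM or more was 0.26, with 19 above 0. *Iapp*, the gene of amylin, which is released together with insulin, was measured at 4422, 3469, 3747 and 3694 CPM in Scr and 6401, 6965, 5967 and 6780.1 CPM in ZIP (log2 change 0.77 ± 0.07, adjusted p = 1.01e-08). *Ins1*, the insulin gene particular to mouse and rat, was measured at 811, 623, 528 and 735 CPM in Scr and 1307, 1309, 1429 and 1176 CPM in ZIP (log2 change 0.95 ± 0.14, adjusted p = 7.25e-06). The ZIP libraries lay above every Scr library for both genes, and *Ins1* rose although it lies in the stretch of chromosome 19 with mostly lower genes. *Ins2*, the more abundant insulin gene, was at 13768, 11077, 9302 and 9586 CPM in Scr and 14738, 15850.3, 15142 and 14125 CPM in ZIP and was not called, with a log2 fold change of 0.45.

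*Slc30a8*, the transporter that loads zinc into insulin granules, showed the largest rise of the granule genes (chr15:52295553-52335798). It was at 34.3, 22.3, 18.6 and 12.4 CPM in Scr and 173, 138, 144 and 105 CPM in ZIP (log2 change 2.67 ± 0.25, adjusted p = 7.53e-09), and the lines did not overlap. *Pcsk2*, a convertase that cuts proinsulin, was at 1069, 1008, 879 and 966 CPM in Scr and 2397, 2535, 2304 and 2566 CPM in ZIP (log2 change 1.32 ± 0.08, adjusted p = 5.44e-12). The granule protein *Ptprn2* rose from 463 to 735 CPM (log2 change 0.67 ± 0.06, adjusted p = 5.33e-09), and *Scg3*, a granin that gathers cargo in granules, from 1409.8 to 2884 CPM (log2 change 1.03 ± 0.10, adjusted p = 2.74e-08). *Scg3* lies in the stretch of chromosome 9 from 75 to 80 Mb. The other proprotein convertase *Pcsk1* and the granin *Chga* were not called, with log2 fold changes of −0.16 and 0.09.

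Called genes of glucose sensing were more often higher than lower in ZIP, while the list as a whole hardly shifted. *Slc2a2*, the glucose transporter GLUT2 (chr3:28697903-28728360), was measured at 37.7, 20.8, 22.1 and 15.5 CPM in Scr and 167, 129.8, 171 and 93.9 CPM in ZIP (log2 change 2.54 ± 0.26, adjusted p = 4.44e-08). Every ZIP library lay above every Scr library. *Mlxipl*, a transcription factor that responds to glucose metabolites, rose from 51.5 to 79.3 CPM (log2 change 0.62 ± 0.13, adjusted p = 5.55e-04), a call lost without Scr 2 (0.57) or ZIP 1 (0.54). In the same list *Hk1*, a hexokinase of high affinity that mature β cells keep low, fell from 28.6 to 14.1 CPM (log2 change −1.02 ± 0.26, adjusted p = 0.004, with overlapping libraries), and *Pfkfb3*, which drives glycolysis, from 52.4 to 17.7 CPM (log2 change −1.56 ± 0.35, adjusted p = 0.00129). Of all 28 members, 6 rose and 3 fell (4 and 3 without both replicates 1). The median of the 26 members at 1 CPM or more was 0.04, with 14 above 0. *G6pc2*, a phosphatase that returns glucose 6-phosphate to glucose, was at 3184 ± 272 CPM in Scr and 4641 ± 422 CPM in ZIP and not called (log2 change 0.54 ± 0.09, adjusted p = 8.70e-05).

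**Figure D3:**
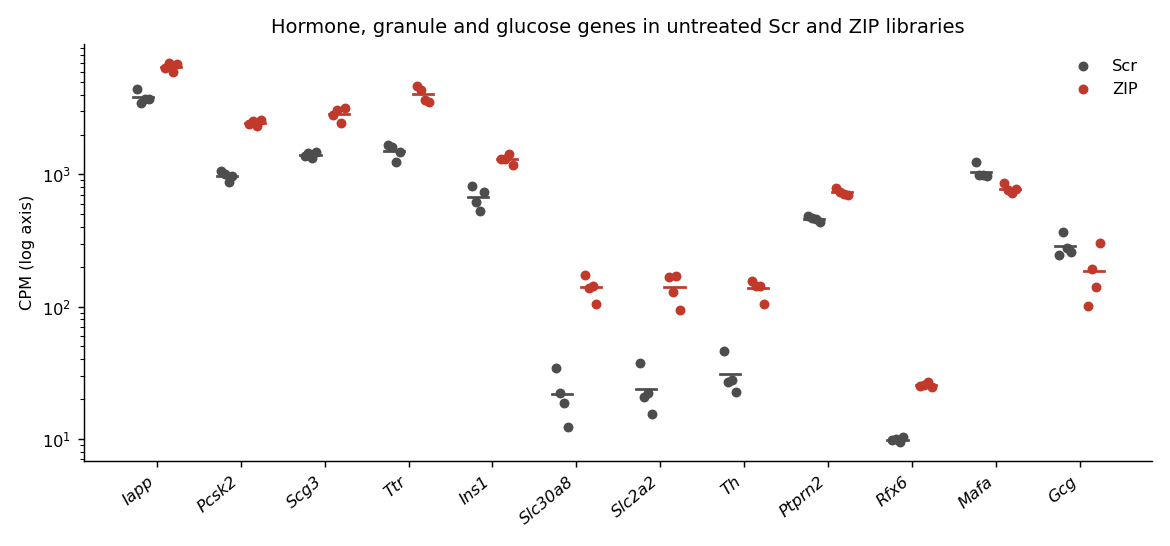
Level in CPM (log axis) in each Scr (grey) and ZIP (red) library of genes for hormones, granules, glucose sensing and transcription factors, 1 point per library with a bar at the mean of the line. Slc2a2 and Slc30a8 lay apart between the lines in all 8 libraries, while Gcg overlapped and Mafa did not reach the fold limit.

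Of 30 β cell transcription factors, 4 (13.3%) rose and 2 (6.67%) fell (1 without both replicates 1, with DESeq2 or with filterByExpr), and their median was −0.03. *Rfx6*, needed to form endocrine cells and for insulin secretion, was at 9.82, 10.03, 9.44 and 10.3 CPM in Scr and 25.2, 25.6, 26.96 and 24.5 CPM in ZIP (log2 change 1.37 ± 0.09, adjusted p = 4.20e-11). *Esrrg*, a nuclear receptor tied to β cell maturation, was at 14.1, 12.6, 14.9 and 16.3 CPM in Scr and 31.7, 28.99, 31.4 and 24.9 CPM in ZIP (log2 change 1.01 ± 0.12, adjusted p = 4.27e-07). *Glis3*, which activates the insulin gene, fell from 112 to 73.3 CPM (log2 change −0.61 ± 0.07, adjusted p = 2.53e-07), lost its call without Scr 4 (−0.56) and lies in the lower stretch of chromosome 19. *Pdx1* and *Nkx6-1* had log2 fold changes of 0.18 and 0.37 and were not called. *Mafa*, a factor of mature β cells, was at 1242, 994, 985 and 981 CPM in Scr and 859.9, 768, 729.5 and 771 CPM in ZIP, which did not overlap, but its log2 fold change of −0.43 (adjusted p = 0.00499) stayed under the fold limit.

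Genes of other islet fates and of progenitors fell more often than they rose. Of 23 members, 2 rose and 5 fell, with a median of −0.44 over the 14 at 1 CPM or more. *Id4*, *Id3*, *Id1* and *Id2*, inhibitors that block the DNA binding of basic helix-loop-helix factors, were all lower. *Id3* was at 107, 105, 93.7 and 78.1 CPM in Scr and 42.9, 42.4, 41.3 and 41.6 CPM in ZIP (log2 change −1.19 ± 0.15, adjusted p = 8.18e-07) and *Id4* at 11.7, 15.7, 16.8 and 12.5 CPM in Scr and 5.31, 4.52, 4.68 and 5.11 CPM in ZIP (log2 change −1.53 ± 0.15, adjusted p = 1.53e-08). *Id1* and *Id2*, which were chosen after their values were seen, fell from 50.6 to 24.6 CPM and 83.4 to 53.5 CPM (log2 fold changes −1.04 and −0.64). *Rest*, the repressor of neuronal and endocrine genes, was low in Scr and lower in ZIP, at 1.05, 1.12, 1.34 and 1.46 CPM in Scr and 0.256, 0.328, 0.3099 and 0.3696 CPM in ZIP (log2 change −1.96 ± 0.26, adjusted p = 2.89e-06). *Sox11*, a SOX factor of embryonic tissues, rose from 4.04 to 10.3 CPM (log2 change 1.36 ± 0.18, adjusted p = 3.15e-06).

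Homeobox genes rose more often than they fell. Of 79 members, 12 rose and 2 fell (10 and 1 without replicates 1 and ZIP 4). *Six3*, a factor of eye and forebrain (chr17:85620834-85626191), was at 3.32, 2.62, 3.66 and 3.93 CPM in Scr and 36.9, 33.7, 32.5 and 40.5 CPM in ZIP (log2 change 3.41 ± 0.14, adjusted p = 5.26e-15). Its antisense neighbour *Six3os1* rose from 0.419 to 3.17 CPM, and reads of both genes could have been divided between them. *Pax5*, a factor of B lymphocytes, rose from 3.99 to 17.6 CPM (log2 change 2.14 ± 0.12, adjusted p = 1.60e-12).

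SOX, forkhead, ETS and basic helix-loop-helix genes showed the reverse split, with 4 of 117 higher and 15 lower (5 and 12 without both replicates 1). *Sox12*, a SOX factor of development, was at 40.005, 33.9, 36.004 and 37.5 CPM in Scr and 2.09, 1.39, 2.201 and 2.76 CPM in ZIP (log2 change −4.12 ± 0.23, adjusted p = 1.07e-12). The related *Sox13* fell from 2.14 to 0.0912 CPM (log2 change −4.46 ± 0.43, adjusted p = 1.61e-08). *Elf4*, an ETS factor of immune cells, fell from 29.3 to 2.96 CPM (log2 change −3.31 ± 0.13, adjusted p = 2.55e-15), and *Twist2*, a mesenchymal factor, from 5.46 to 0.868 CPM (log2 change −2.66 ± 0.24, adjusted p = 4.55e-09). *Eya1*, a cofactor of homeobox proteins, was at 19.7, 19.8, 16.7 and 15.3 CPM in Scr and 4.24, 4.92, 4.71 and 3.46 CPM in ZIP (log2 change −2.04 ± 0.12, adjusted p = 1.98e-12). Among zinc finger genes, 15 of 448 rose and 18 fell, below or near the shares over all genes. *Zfp521*, a regulator of progenitor cells, was at 0.02698, 0.0575, 0.0313 and 0.0929 CPM in Scr and 9.29, 9.59, 11.3 and 10.2 CPM in ZIP, at least 114-fold higher when Scr was set at 3 reads per library. *Gli2*, a transcription factor of Hedgehog signalling, rose from 0.449 to 6.75 CPM (log2 change 3.89 ± 0.30, adjusted p = 3.75e-10).

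The machinery of exocytosis was little changed as a group. Of 80 members, 6 rose and 5 fell, with a median of 0.11. *Cplx1*, a complexin that clamps and triggers vesicle fusion, was at 3.59, 1.47, 2.03 and 1.796 CPM in Scr and 8.56, 8.68, 10.9 and 8.299 CPM in ZIP (log2 change 2.03 ± 0.29, adjusted p = 6.14e-06). *Cadps2*, which primes dense core vesicles, fell from 3.04 to 0.214 CPM (log2 change −3.85 ± 0.44, adjusted p = 2.00e-07, −4.45 without ZIP 1). *Doc2b*, a calcium sensor of insulin release, fell from 1.26 to 0.155 CPM (log2 change −3.01 ± 0.47, adjusted p = 1.97e-05), and the syntaxin-binding protein *Stxbp6* from 3.5998 to 1.54 CPM (log2 change −1.23 ± 0.23, adjusted p = 1.95e-04). *Doc2b* and *Stxbp6* were low in both lines.

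Ion channel genes changed in both directions. Potassium channel genes held 11 higher and 11 lower calls among 81, sodium and calcium channel genes 5 and 6 among 38 (2 and 4 without both replicates 1), and TRP, store and ryanodine channel genes 4 and 1 among 42. *Kcnk9*, a potassium leak channel that sets the resting potential (chr15:72506986-72547699), was at 23.1, 24.6, 18.97 and 18.8 CPM in Scr and 1.72, 1.42, 2.29 and 2.02 CPM in ZIP (log2 change −3.51 ± 0.28, adjusted p = 7.07e-10). *Kcnq5* fell from 1.39 to 0.138 CPM (log2 change −3.298 ± 0.52, adjusted p = 2.78e-05). *Kcnq3* rose from 0.834 to 4.203 CPM (log2 change 2.32 ± 0.44, adjusted p = 2.47e-04). Both genes code for subunits of one family of voltage-gated potassium channels. The neighbouring sodium channel genes *Scn1a* and *Scn2a* fell from 4.92 to 0.745 CPM and 4.802 to 0.585 CPM (log2 fold changes −2.72 and −3.03). *Ryr2*, a calcium release channel of the endoplasmic reticulum (ER), was at 2.27, 2.96, 2.53 and 2.88 CPM in Scr and 9.55, 13.2, 7.19 and 16.5 CPM in ZIP (log2 change 2.12 ± 0.30, adjusted p = 6.72e-06). *Itpr3*, an inositol trisphosphate receptor of the same store, was at 14.8, 11.7, 9.66 and 9.198 CPM in Scr and 3.696, 2.15, 1.89 and 2.32 CPM in ZIP (log2 change −2.19 ± 0.26, adjusted p = 3.57e-07). The 2 release channels thus moved in opposite directions. *Trpv2* and *Trpc4*, calcium-permeable channels of the surface membrane, rose from 2.32 to 5.73 CPM and 2.02 to 4.75 CPM.

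Receptors for transmitters and hormones were also split. Of 71 transmitter-gated channels and metabotropic receptors, 8 rose and 14 fell (5 and 11 without both replicates 1), and of 51 G protein receptors that tune secretion 6 rose and 8 fell (5 and 5). *Glra3*, a glycine receptor subunit, was at 0.243, 0.144, 0.125 and 0.0619 CPM in Scr and 3.403, 3.25, 6.73 and 4.603 CPM in ZIP (log2 change 4.91 ± 0.42, adjusted p = 2.01e-09). The glutamate receptor subunits *Grin3a* and *Grin2d* fell from 5.36 to 0.4998 CPM and 1.95 to 0.326 CPM (log2 fold changes −3.39 and −2.57), and the nicotinic subunit *Chrna5* from 5.74 to 0.936 CPM (log2 change −2.602 ± 0.29, adjusted p = 1.44e-07). *Prlr*, the prolactin receptor through which β cells expand in pregnancy, was among the 5 largest falls in CPM of called genes, at 838, 898, 838 and 999.6 CPM in Scr and 513, 493, 390.4 and 653 CPM in ZIP (log2 change −0.802 ± 0.22, adjusted p = 0.00696). *Casr*, the calcium-sensing receptor, rose from 12.9 to 33.5 CPM (log2 change 1.38 ± 0.18, adjusted p = 1.28e-06), *Prokr1*, a receptor for prokineticins, from 1.42 to 10.5 CPM (log2 change 2.88 ± 0.22, adjusted p = 3.60e-10), and *Cckar*, a cholecystokinin receptor, from 0.485 to 3.13 CPM (log2 change 2.66 ± 0.31, adjusted p = 3.67e-07). *S1pr2*, a receptor for sphingosine 1-phosphate, fell from 4.18 to 1.33 CPM (log2 change −1.64 ± 0.13, adjusted p = 4.32e-10).

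Among 115 genes of cAMP and G protein signalling, 14 rose and 8 fell (11 and 10 without both replicates 1). *Pde5a*, a phosphodiesterase for cGMP whose 3′ UTR holds a seed site for miR-146a-5p, was at 7.69, 7.705, 9.38 and 8.39 CPM in Scr and 0.695, 0.693, 1.05 and 0.571 CPM in ZIP (log2 change −3.44 ± 0.29, adjusted p = 2.02e-09). The adenylyl cyclases *Adcy7* and *Adcy2* fell from 33.96 to 6.96 CPM and 1.3004 to 0.354 CPM (log2 fold changes −2.29 and −1.86), with *Adcy7* in the lower stretch of chromosome 8. *Rgs8*, which shortens G protein signals, rose from 0.558 to 4.79 CPM (log2 change 3.11 ± 0.31, adjusted p = 2.04e-08).

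Several of the largest shifts between the lines lay in genes for axon guidance and cell adhesion. *Slit1*, a secreted guidance ligand for Robo receptors, was at 483, 446, 472 and 445 CPM in Scr and 6.403, 7.403, 10.3 and 12.8 CPM in ZIP (log2 change −5.64 ± 0.22, adjusted p = 2.80e-15, chr19:41600257-41743856) and lies in the lower stretch of chromosome 19. *Ntn1*, the guidance cue netrin 1 (chr11:68209364-68386826), was at 2.05, 2.36, 2.22 and 2.97 CPM in Scr and 43.2, 48.9, 49.7 and 63.1 CPM in ZIP (log2 change 4.42 ± 0.14, adjusted p = 2.20e-17). For each gene the lines were apart by far more than their libraries varied. Of 25 Slit, Robo, netrin and Unc5 genes, 3 rose and 5 fell, among them *Ntng2* (up, log2 change 3.42 ± 0.38, adjusted p = 1.36e-07) and *Srgap1* (down, log2 change −3.38 ± 0.21, adjusted p = 1.26e-11). Of 20 Eph receptors and ephrins 4 fell, with *Epha8* at 15.2, 11.7, 16.6 and 16.4 CPM in Scr and 4.65, 4.45, 6.42 and 5.75 CPM in ZIP (log2 change −1.49 ± 0.19, adjusted p = 1.19e-06), *Efnb1* (log2 change −0.66 ± 0.07, adjusted p = 1.16e-07) and *Efna2* (log2 change −0.67 ± 0.12, adjusted p = 1.02e-04) next in size among those above 1 CPM. None rose in edgeR, with DESeq2, or at an unadjusted p under 0.05 with the same fold limit. *Efna2* was not called without Scr 1 (−0.58). Of 30 semaphorin, plexin and neuropilin genes 3 rose and 3 fell, led by *Sema6a* (up, log2 change 2.36 ± 0.29, adjusted p = 5.89e-07) and *Plxdc1* (down, log2 change −1.78 ± 0.28, adjusted p = 2.05e-05).

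Clustered protocadherins, of which each neuron chooses a few from adjoining promoters, held many calls. Of 58 genes 9 rose and 19 fell (8 and 18 without both replicates 1), compared with 11.2% called in either direction outside the block. *Pcdhgb7* was at 2.86, 3.16, 1.84 and 2.199 CPM in Scr and 111, 103, 111 and 91.7 CPM in ZIP (log2 change 5.36 ± 0.15, adjusted p = 5.23e-18) and *Pcdha12* at 7.28, 4.83, 3.5004 and 2.48 CPM in Scr and 31.1, 28.5, 27.7 and 23.6 CPM in ZIP (log2 change 2.602 ± 0.22, adjusted p = 1.71e-09). *Pcdha11*, 9.4 kb from *Pcdha12* in the alpha cluster, was at 41.2, 42.5, 42.2 and 44.3 CPM in Scr and 7.98, 9.63, 8.55 and 9.11 CPM in ZIP (log2 change −2.27 ± 0.11, adjusted p = 1.53e-13). *Pcdhga2*, 82.7 kb from *Pcdhgb7* in the gamma cluster, was at 12.3, 10.9, 7.09 and 6.32 CPM in Scr and 1.06, 2.55, 1.95 and 2.65 CPM in ZIP (log2 change −2.15 ± 0.34, adjusted p = 3.01e-05). Each cluster thus held genes that moved in opposite directions. Members of one cluster share their last exons, so reads could have been divided between them and single values are uncertain. Outside the clusters, 5 of 50 cadherin and protocadherin genes rose and 4 fell, among them *Pcdh7*, at 27.003, 21.4, 19.03 and 14.9 CPM in Scr and 125, 109, 129.96 and 119.8 CPM in ZIP (log2 change 2.55 ± 0.20, adjusted p = 4.82e-10). *Celsr1*, a cadherin of planar polarity, fell from 30.7 to 10.7 CPM (log2 change −1.52 ± 0.25, adjusted p = 4.52e-05).

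Adhesion molecules of the immunoglobulin and synaptic families fell more often than they rose, with 6 of 94 higher and 14 lower and a median of −0.16. *Kirrel*, a nephrin-like adhesion protein (chr3:87078593-87174537), was at 11.6, 10.03, 12.7 and 13.4 CPM in Scr and 0.622, 0.0365, 0.248 and 0.235 CPM in ZIP (log2 change −5.38 ± 0.38, adjusted p = 9.82e-11, −6.03 without ZIP 1). *Chl1*, a neural adhesion molecule related to L1, was at 63.2, 62.7, 75.8 and 77.4 CPM in Scr and 14.6, 11.1, 13.3 and 13.04 CPM in ZIP (log2 change −2.42 ± 0.13, adjusted p = 1.21e-12). Tight junction and epithelial surface genes held 1 higher and 9 lower calls among 41, with a median of −0.47 over 16 genes. *Perp*, a membrane protein of desmosomes and a target of p53, was at 12.7, 14.7, 14.3 and 12.4 CPM in Scr and 5.74, 7.29, 5.98 and 6.79 CPM in ZIP (log2 change −1.07 ± 0.09, adjusted p = 3.03e-09). *Cldn11* and *Cldn1*, claudins of tight junctions, fell from 6.21 to 2.16 CPM and 21.7 to 12.1 CPM (log2 fold changes −1.52 and −0.84). *Cd9*, a tetraspanin of the surface, was at 11.7, 12.7, 11.2 and 12.2 CPM in Scr and 0.915, 0.146, 0.372 and 0.672 CPM in ZIP (log2 change −4.51 ± 0.37, adjusted p = 9.22e-10). *Msn*, which links the membrane to actin, was at 15.2, 16.5, 13.2 and 12.6 CPM in Scr and 1.79, 0.328, 0.217 and 0.302 CPM in ZIP (log2 change −4.48 ± 0.44, adjusted p = 2.38e-08, −5.66 without ZIP 1). In ZIP, *Msn* was highest in replicate 1, the library with the most fibroblast and Schwann cell marker reads.

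Matrix genes rose more often than they fell, but part of the count rested on the libraries that stood apart. Of 96 matrix proteases and inhibitors 22 rose and 5 fell, 19 and 3 without both replicates 1, and 15 and 3 without ZIP 4 as well. For the 38 collagen genes these pairs of counts were 6 and 3, 4 and 3, and 2 and 3, and for 39 laminins and integrins 5 and 1, 2 and 3, and 2 and 3. *Itga2*, an integrin chain that binds collagen, was at 0.513, 0.287, 0.375 and 0.526 CPM in Scr and 4.35, 0.584, 0.9298 and 1.24 CPM in ZIP and lost its call without ZIP 1 (log2 fold change 1.11, from 2.03). The serpin *Serpina1c*, a homologue of antitrypsin, was at 2.13, 1.44, 1.72 and 1.796 CPM in Scr and 13.2, 9.15, 16.8 and 7.66 CPM in ZIP (log2 change 2.72 ± 0.31, adjusted p = 2.71e-07). Serpina genes are near-identical copies, so the share of each is uncertain. *Serpinb1c*, another serpin, had 3 reads or fewer in every Scr library and was at least 24.1-fold higher in ZIP, set against 3 reads per library. *Lama1*, a laminin of basement membranes, was at 30.7, 38.4, 60.4 and 39.4 CPM in Scr and 14.2, 12.5, 17.2 and 12.7 CPM in ZIP (log2 change −1.57 ± 0.16, adjusted p = 5.60e-08). *Col16a1* was at 131, 125, 126 and 119 CPM in Scr and 60.1, 58.5, 67.97 and 60.98 CPM in ZIP (log2 change −1.02 ± 0.14, adjusted p = 2.82e-06). *Col22a1* rose from 1.64 to 4.07 CPM (log2 change 1.31 ± 0.25, adjusted p = 2.19e-04).

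Growth factor pathways changed gene by gene. Wnt genes held 3 higher and 6 lower calls among 53, TGF-β, BMP and activin genes 4 and 6 among 66, FGF, EGF and neuregulin genes 7 and 7 among 47, insulin and IGF genes 3 and 2 among 36, and Notch genes 2 and 7 among 27. Without replicates 1 and ZIP 4 the lower calls were 3 of Wnt and 4 of Notch genes. *Fgfr1*, the FGF receptor that signals in β cells, was at 8.44, 9.14, 9.59 and 9.57 CPM in Scr and 1.79, 0.584, 1.08 and 1.38 CPM in ZIP (log2 change −2.92 ± 0.33, adjusted p = 1.59e-07). Its coreceptor *Klb* rose from 8.199 to 20.8 CPM (log2 change 1.34 ± 0.18, adjusted p = 3.86e-06). *Spred1*, an inhibitor of the route from this receptor to ERK, fell from 9.87 to 2.19 CPM (log2 change −2.19 ± 0.25, adjusted p = 1.73e-07, −2.79 without ZIP 1). *Inha*, the subunit particular to inhibins, which oppose activins, was at 6.72, 5.23, 4.41 and 4.58 CPM in Scr and 0.293, 0.182, 0.217 and 0.437 CPM in ZIP (log2 change −4.19 ± 0.21, adjusted p = 3.14e-13). *Tgfb2* rose from 0.491 to 3.31 CPM (log2 change 2.74 ± 0.36, adjusted p = 2.05e-06). *Igf1r*, the IGF receptor, rose from 7.53 to 16.7 CPM (log2 change 1.14 ± 0.23, adjusted p = 3.96e-04). *Igfbp4*, which binds and withholds IGF, fell from 4.495 to 0.747 CPM (log2 change −2.59 ± 0.28, adjusted p = 1.07e-07). Of the Notch genes *Dlk1*, an imprinted noncanonical ligand, rose from 0.133 to 2.62 CPM (log2 change 4.26 ± 0.38, adjusted p = 4.98e-09). *Mfng*, which glycosylates Notch, fell from 9.04 to 3.08 CPM (log2 change −1.55 ± 0.12, adjusted p = 4.26e-10) and *Hey2*, a Notch target, from 2.27 to 1.11 CPM (log2 change −1.03 ± 0.24, adjusted p = 0.00219).

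Mitochondrial genes held few calls. Outside the block, 2 of 96 nuclear genes for respiratory chain subunits rose, 1 rose and 1 fell of 76 for the mitochondrial ribosome, 1 rose and 1 fell of 64 for import, dynamics and biogenesis, and 2 of 38 carriers fell. No respiratory chain gene fell and no carrier rose in edgeR, with DESeq2, or at an unadjusted p under 0.05 with the same fold limit. The medians of these lists lay between −0.04 and 0.05. The single fall among dynamics genes was *Dnm1l*, the GTPase that divides mitochondria (chr16:16312228-16359031), at 117, 130.3, 133 and 132 CPM in Scr and 60.9, 64.1, 64.7 and 63.3 CPM in ZIP (log2 change −1.02 ± 0.06, adjusted p = 4.70e-12). The lines did not overlap. *Dnm1l* lies within 0.69 Mb of *Mcm4* and *Cebpd* on chromosome 16, which were lower too. *Ndufs6*, a subunit of complex I, and *Mrpl36*, a protein of the mitochondrial ribosome, lie 11.1 kb apart and rose from 21.5 to 40.5 CPM and from 15.8 to 28.9 CPM (log2 fold changes 0.91 and 0.87). *Cox7a2*, a subunit of complex IV that rose from 76.9 to 125 CPM, lies in the stretch of chromosome 9 from 75 to 80 Mb. *Slc25a24*, a carrier of ATP and phosphate, fell from 13.999 to 3.54 CPM (log2 change −1.98 ± 0.14, adjusted p = 1.31e-10).

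In fuel metabolism, 2 of 39 genes of glycolysis and pyruvate use rose and 2 fell, 2 of 30 cholesterol genes rose, and 1 of 54 genes of fatty acid and lipid metabolism rose and 7 fell (5 without both replicates 1). *Fbp1*, an enzyme of gluconeogenesis, was at 49.5, 64.02, 44.9 and 63.9 CPM in Scr and 15.2, 20.1, 15.2 and 24.3 CPM in ZIP (log2 change −1.57 ± 0.24, adjusted p = 1.25e-05). *Pdk2*, a kinase that holds pyruvate out of the mitochondrion, rose from 6.23 to 11.3 CPM (log2 change 0.86 ± 0.16, adjusted p = 2.11e-04). *Apoe*, which carries lipids between cells, fell from 8.48 to 1.62 CPM (log2 change −2.41 ± 0.43, adjusted p = 1.13e-04), with ZIP 1 at 4.13 CPM and the other ZIP libraries at 0.992 CPM or less (log2 fold change −3.42 without ZIP 1). The nuclear receptors of fatty acids *Ppara* and *Pparg* fell from 1.61 to 0.395 CPM and from 5.797 to 3.07 CPM (log2 fold changes −2.004 and −0.91). The rise of *Elovl5*, a fatty acid elongase, from 127 to 231 CPM lies in the stretch of chromosome 9 from 75 to 80 Mb. No cholesterol gene fell in edgeR, with DESeq2, or at an unadjusted p under 0.05 with the same fold limit, and the median of these genes was 0.24.

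*Ucp2*, an uncoupling protein of the inner mitochondrial membrane that lowers insulin secretion (chr7:100493358-100499629), was at 55.3, 65.7, 52.4 and 48.6 CPM in Scr and 14.4, 14.8, 11.5 and 17.7 CPM in ZIP (log2 change −1.93 ± 0.12, adjusted p = 6.51e-12). It belongs to a list of 55 antioxidant and NRF2 target genes in which 5 rose and 4 fell. *Nqo1*, a quinone reductase, was at 4.15, 3.31, 3.0004 and 2.17 CPM in Scr and 11.6, 11.4, 14.1 and 9.68 CPM in ZIP (log2 change 1.88 ± 0.25, adjusted p = 2.30e-06). *Ggt5*, which cleaves glutathione conjugates, rose from 0.392 to 1.26 CPM (log2 change 1.695 ± 0.38, adjusted p = 0.00142). *Gsta4*, a glutathione transferase, rose from 0.589 to 1.84 CPM and lies on chromosome 9 between 75 and 80 Mb. Of 98 aldehyde, glucuronosyl, sulfo and P450 enzymes 12 rose and 10 fell. *Aldh2*, which clears acetaldehyde, was at 15.1, 13.9, 13.4 and 12.4 CPM in Scr and 3.22, 2.48, 2.94 and 3.19 CPM in ZIP (log2 change −2.21 ± 0.16, adjusted p = 1.55e-10). Of 24 zinc transporters and metallothioneins the single rise was *Slc30a8*, described above, and none fell in edgeR, with DESeq2, or at an unadjusted p under 0.05 with the same fold limit.

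Cytosolic ribosomal protein genes sat slightly low, with a median of −0.16 over 78 genes and 7 above 0. Of 81 members outside the block, 1 rose (*Rpl22l1*, log2 change 0.62 ± 0.12, adjusted p = 2.11e-04, not called without ZIP 4) and none fell in edgeR, with DESeq2, or at an unadjusted p under 0.05 with the same fold limit. Of 71 translation factors 1 fell, with the largest fall on the log2 scale of the genes named here. *Eef1a2*, the form of elongation factor 1α used by neurons, muscle and endocrine cells (chr2:181141758-181157015), was at 316, 321, 317 and 336 CPM in Scr and 0.146, 0.365, 0.651 and 1.38 CPM in ZIP (log2 change −8.95 ± 0.27, adjusted p = 2.20e-17, −9.64 without ZIP 4). All 4 ZIP libraries were far below every Scr library.

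Of 51 genes for ER chaperones and the integrated stress response 5 rose, the median was 0.19 with 37 of 48 above 0, and none fell in edgeR, with DESeq2, or at an unadjusted p under 0.05 with the same fold limit. *Ero1b*, the pancreatic oxidase that makes disulfide bonds in proinsulin, was at 3768, 3399, 3548 and 3704 CPM in Scr and 6527, 5928, 5794 and 5671 CPM in ZIP (log2 change 0.73 ± 0.07, adjusted p = 4.10e-09). *Atf3*, a factor of the stress response, was at 2.54, 1.61, 2.22 and 1.83 CPM in Scr and 4.32, 5.14, 5.55 and 4.07 CPM in ZIP (log2 change 1.22 ± 0.21, adjusted p = 6.11e-05), and *Creld2*, an ER chaperone, was at 87.2 ± 8.99 CPM in Scr and 135 ± 37.8 CPM in ZIP (log2 change 0.63 ± 0.17, adjusted p = 0.00736), a call lost without Scr 1 (0.56) or ZIP 4 (0.42). *Ddr2*, a collagen receptor at the cell surface in the same list, rose from 4.95 to 12.7 CPM (log2 change 1.36 ± 0.23, adjusted p = 6.14e-05). Of 62 autophagy and lysosome genes 0 were called in edgeR and 0 with DESeq2, and 1 was higher at an unadjusted p under 0.05 with the same fold limit.

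Genes of cell death were lower more often than higher. Of 52 members of the BCL2, caspase and death receptor families 3 rose and 11 fell (1 and 8 without both replicates 1), with a median of −0.16. *Tnfrsf10b*, the death receptor for TRAIL, was at 1.92, 2.07, 2.69 and 2.01 CPM in Scr and 0.585, 0.328, 0.403 and 0.739 CPM in ZIP (log2 change −2.07 ± 0.25, adjusted p = 4.42e-07), whereas *Tnfsf10*, the TRAIL gene itself, was at 1.75, 3.19, 4.501 and 2.199 CPM in Scr and 3.403, 5.03, 7.005 and 15.96 CPM in ZIP (log2 change 1.45 ± 0.35, adjusted p = 0.00249, with overlapping libraries). Without ZIP 4, the library with the highest sum of interferon-stimulated genes, the log2 fold change of *Tnfsf10* was 0.85 and still called. *Gsdmd*, which forms pores in pyroptosis, was at 7.77, 7.73, 6.501 and 6.63 CPM in Scr and 1.76, 1.605, 1.43 and 2.59 CPM in ZIP (log2 change −1.96 ± 0.17, adjusted p = 1.85e-09). *Bik*, a BCL2 family member that promotes death, fell from 1.72 to 0.7798 CPM (log2 change −1.13 ± 0.31, adjusted p = 0.00804, with overlapping libraries).

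Of 60 cell cycle and replication genes 1 rose and 7 fell, with a median of −0.23. *Ccnd2*, the cyclin with which mouse β cells enter the cycle, was at 1358, 1352, 1781 and 1265 CPM in Scr and 3363, 2833, 2781 and 2813 CPM in ZIP (log2 change 1.03 ± 0.15, adjusted p = 5.45e-06, chr6:127125709-127151048). *Mcm5* and *Mcm4*, subunits of the replicative helicase, were at 401, 389.5, 429 and 424 CPM in Scr and 178, 185, 203 and 222 CPM in ZIP (log2 change −1.06 ± 0.06, adjusted p = 5.24e-12) and 198, 196, 216 and 241 CPM in Scr and 89.8, 83.7, 99.9 and 99.5 CPM in ZIP (log2 change −1.19 ± 0.07, adjusted p = 1.92e-12). *Ccnd2* and the helicase genes thus moved in opposite directions. *Cdkn1c*, the inhibitor p57, fell from 2.54 to 0.939 CPM (log2 change −1.43 ± 0.22, adjusted p = 1.76e-05).

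Of 36 immediate early genes 2 rose and 5 fell. *Cebpd*, a factor of the acute phase response (chr16:15887286-15889545), was at 7.47, 6.55, 5.19 and 5.98 CPM in Scr and 0.768, 0.365, 0.372 and 0.605 CPM in ZIP (log2 change −3.58 ± 0.27, adjusted p = 2.56e-10). *Jun*, a subunit of AP-1, was at 39.7, 32.8, 36.5 and 44.7 CPM in Scr and 66.2, 73.7, 80.4 and 52.2 CPM in ZIP (log2 change 0.83 ± 0.12, adjusted p = 7.73e-06). *Ier2*, in the lower stretch of chromosome 8, fell from 14.1 to 6.73 CPM (log2 change −1.07 ± 0.16, adjusted p = 1.11e-05). Of 20 clock genes 2 fell (3 with DESeq2), with a median of −0.15, and none rose in edgeR, with DESeq2, or at an unadjusted p under 0.05 with the same fold limit. *Npas2*, a partner that can stand in for CLOCK (chr1:39194272-39363240), was at 4.83, 3.13, 3.81 and 2.91 CPM in Scr and 0.2195, 0.0729, 0.09298 and 0.168 CPM in ZIP (log2 change −4.703 ± 0.32, adjusted p = 3.42e-11). *Rorb*, a nuclear receptor that activates clock genes, was at 4.21, 6.296, 5.75 and 4.12 CPM in Scr and 0.329, 0.802, 0.682 and 0.605 CPM in ZIP (log2 change −3.06 ± 0.32, adjusted p = 4.51e-08).

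**Figure D4:**
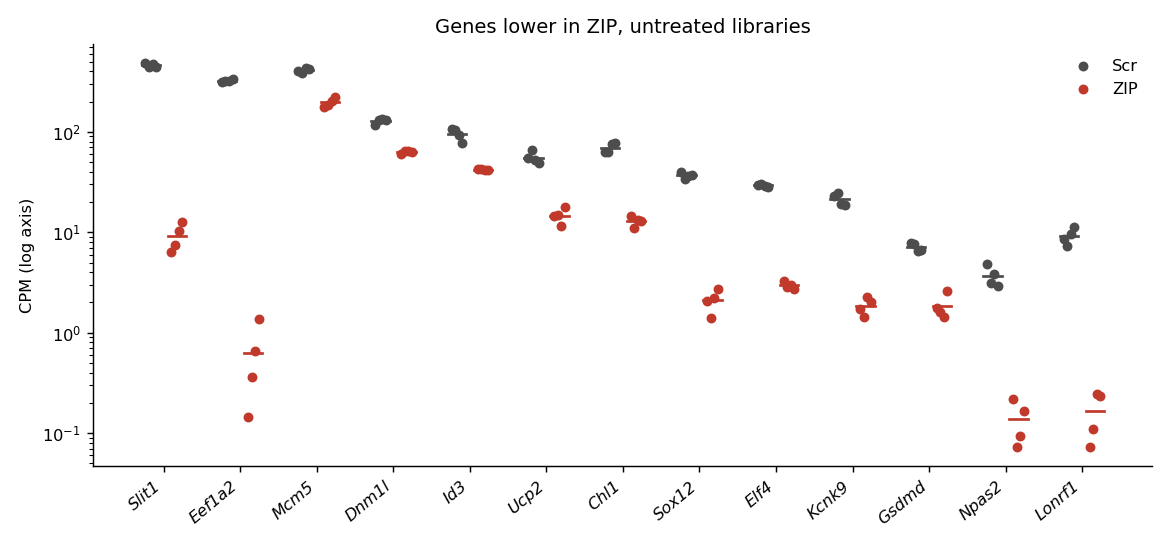
Level in CPM (log axis) in each Scr (grey) and ZIP (red) library of genes that were lower in ZIP outside the distal chromosome 9 block, 1 point per library with a bar at the mean of the line. Of these genes, Eef1a2 lay furthest apart, with every ZIP library below every Scr library.

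Genes with a seed site for miR-146a-5p were not called mainly in one direction. *Irak1*, with 2 sites shown above, was at 173, 183, 158 and 166 CPM in Scr and 205, 208, 186 and 215 CPM in ZIP (log2 change 0.26 ± 0.06, adjusted p = 0.00295), which did not reach a fold of 1.5. *Traf6*, with 4 sites shown above, was at 73.9, 70.8, 75.5 and 77.8 CPM in Scr and 72.3, 77.4, 83.6 and 69.6 CPM in ZIP (log2 change 0.02 ± 0.05, adjusted p = 0.787), and the sign of its difference turned to −0.02 without ZIP 3. *Card10*, whose site is shown above, was lower in ZIP, at 6.58, 5.63, 6.09 and 5.88 CPM in Scr and 0.476, 0.474, 0.434 and 0.739 CPM in ZIP (log2 change −3.501 ± 0.20, adjusted p = 1.56e-12). It lies 19.3 kb from *Mfng*, which was lower too. In the list of established targets and of the Toll-like and interleukin 1 receptor route, 3 of 29 members rose and 3 fell, with a median of 0.02. *Tlr5*, the receptor for flagellin, rose from 3.67 to 7.27 CPM (log2 change 0.99 ± 0.17, adjusted p = 6.81e-05), and *Irak4*, a kinase upstream of *Irak1*, was at 0.834 ± 0.196 CPM in Scr and 1.62 ± 0.635 CPM in ZIP (log2 change 0.95 ± 0.25, adjusted p = 0.00558, with overlapping libraries), a call lost without both replicates 1 (0.58).

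Of 15437 genes with an annotated 3′ UTR, 1979 (12.8%) held a site with the letters AGTTCTC. With the block kept, among these 142 (7.18%) were higher and 143 (7.23%) lower, with a median log2 fold change of 0.01. Among the 13458 genes with no site, 6.13% were higher and 6.004% lower. Among the 717 genes with the longer site AGTTCTCA, 44 were higher and 49 lower, with a median of −0.01. Outside the block, the 1590 genes with a site and 1 CPM or more held 93 higher (5.85%) and 114 lower (7.17%) calls. For the 9918 genes with no site at that level, the shares were 5.05% and 6.604%. Median log2 fold changes were −0.003 with a site and −0.022 with none, a difference that was not tested. *Armh4*, a membrane protein, was at 10.95, 6.64, 7.72 and 10.96 CPM in Scr and 0.622, 0.182, 0.3099 and 0.0336 CPM in ZIP (log2 change −4.98 ± 0.43, adjusted p = 2.62e-09, −5.64 without ZIP 1) and has 3 sites. *Tmod2*, which caps actin filaments of neurons, was at 72.9, 75.01, 58.1 and 38.7 CPM in Scr and 488, 449, 397 and 439 CPM in ZIP (log2 change 2.86 ± 0.21, adjusted p = 1.47e-10) and has 3 sites, in the stretch of chromosome 9 from 75 to 80 Mb. Both genes were picked from the largest falls and rises among called genes with the longer site. Their opposite directions thus followed from the choice. Sites were read from 1 annotation only. The microRNA machinery itself held 1 higher and 1 lower call among 22, *Lin28b* (up, log2 change 1.36 ± 0.14, adjusted p = 7.19e-08) and *Lin28a* (down, log2 change −0.95 ± 0.25, adjusted p = 0.006), RNA-binding proteins that block let-7 maturation.

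NF-κB genes showed 1 higher and 1 lower call among 22. *Relb*, a subunit of the noncanonical route, was at 2.86, 2.2999, 2.63 and 0.929 CPM in Scr and 4.57, 4.89, 4.12 and 4.74 CPM in ZIP (log2 change 1.06 ± 0.21, adjusted p = 4.17e-04). *Cyld*, a deubiquitinase that restrains NF-κB, was at 167 ± 10.6 CPM in Scr and 111 ± 8.601 CPM in ZIP and lies in the lower stretch of chromosome 8. Its log2 fold change of −0.59 was next to the fold limit, and the call was lost without Scr 3 (−0.58), Scr 4 (−0.55) or ZIP 4 (−0.55). Interferon-stimulated genes held 1 higher and 3 lower calls among 65, and their summed level was 837, 912, 998 and 867 CPM in Scr and 808, 841, 869 and 1239 CPM in ZIP. The highest of these sums was ZIP 4, which also held the highest values of *Serpina3f* and *Psmb8* in its line. *Ifitm2*, which blocks virus entry, was at 7.26, 5.98, 4.56 and 4.83 CPM in Scr and 1.87, 1.75, 1.77 and 1.95 CPM in ZIP (log2 change −1.63 ± 0.18, adjusted p = 1.13e-07). *Oas1a*, at 0.486, 0.977, 1.22 and 0.712 CPM in Scr and 0.695, 1.64, 1.49 and 4.03 CPM in ZIP, was called, but its log2 fold change of 1.24 fell to 0.61 without ZIP 4, and the call was also lost without Scr 1 (1.03), Scr 2 (1.32) or Scr 4 (1.17). Of 31 genes of antigen presentation 2 rose and 1 fell, and without replicates 1 and ZIP 4 the counts were 0 and 4. *H2-K1*, a class I molecule, was at 168, 158, 176 and 141 CPM in Scr and 202, 235, 228 and 328 CPM in ZIP (log2 change 0.63 ± 0.12, adjusted p = 2.43e-04), a call lost without Scr 4 (0.57) or ZIP 4 (0.47). The direction of this list therefore depended on which libraries were kept.

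Imprinted genes held 4 higher and 7 lower calls among 47, and the counts stayed at 4 and 7 without replicates 1 and ZIP 4. *Th*, tyrosine hydroxylase of catecholamine synthesis (chr7:142892779-142899995), was at 46.1, 26.97, 27.8 and 22.6 CPM in Scr and 157, 143, 144 and 105 CPM in ZIP (log2 change 2.15 ± 0.19, adjusted p = 4.57e-09). *Mest*, an enzyme of growth, was at 0.486, 0.345, 0.188 and 0.279 CPM in Scr and 2.598, 2.92, 2.696 and 4.74 CPM in ZIP (log2 change 3.29 ± 0.35, adjusted p = 7.47e-08). *Ndn*, necdin, rose from 0.862 to 5.17 CPM (log2 change 2.57 ± 0.30, adjusted p = 2.81e-07). Germline and cancer-testis genes held 8 higher and 4 lower calls among 83. The X-linked genes *Xlr3c* and *Xlr*, which are copies of one family and could share reads, moved in opposite directions, *Xlr3c* at 5.13, 4.46, 4.16 and 3.28 CPM in Scr and 42.4, 42.4, 44.1 and 50.4 CPM in ZIP (log2 change 3.39 ± 0.12, adjusted p = 3.10e-16) and *Xlr* at 19.99, 18.7, 20.1 and 21.7 CPM in Scr and 1.43, 1.896, 1.43 and 2.18 CPM in ZIP (log2 change −3.53 ± 0.14, adjusted p = 3.92e-15). *Rhox5*, a homeobox gene of the testis, rose from 0.307 to 3.903 CPM (log2 change 3.65 ± 0.28, adjusted p = 2.62e-10).

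Other large differences were found in genes of no list. *Ccdc8*, a scaffold of a ubiquitin ligase for growth, was at 0.5395, 0.22999, 0.375 and 0.434 CPM in Scr and 8.09, 7.55, 7.16 and 7.06 CPM in ZIP (log2 change 4.22 ± 0.17, adjusted p = 2.80e-15). *Tmem59l*, a membrane protein of neurons, was at 0.8902, 0.604, 0.438 and 1.18 CPM in Scr and 8.196, 8.83, 7.098 and 7.39 CPM in ZIP (log2 change 3.33 ± 0.24, adjusted p = 1.06e-10). *Cav2*, a caveolin, was at 1.89, 1.01, 0.844 and 0.743 CPM in Scr and 11.5, 10.5, 8.52 and 10.2 CPM in ZIP (log2 change 3.16 ± 0.29, adjusted p = 6.47e-09). *Steap2*, a metal reductase (chr5:5664829-5694568), was at 6.26, 6.61, 8.94 and 9.04 CPM in Scr and 0.146, 0.109, 0 and 0.202 CPM in ZIP (log2 change −6.06 ± 0.36, adjusted p = 5.05e-12). *Lonrf1* fell from 9.21 to 0.166 CPM (log2 change −5.72 ± 0.23, adjusted p = 3.31e-15), *Slfn3*, a schlafen of lymphocytes with near copies, from 7.62 to 0.169 CPM (log2 change −5.44 ± 0.22, adjusted p = 2.80e-15), and *Lrch2* from 21.3 to 0.6302 CPM (log2 change −5.05 ± 0.21, adjusted p = 8.75e-15). *Rbms1*, an RNA-binding protein, was at 9.14, 7.93, 10.2 and 9.69 CPM in Scr and 0.439, 0.182, 0.372 and 0.437 CPM in ZIP (log2 change −4.67 ± 0.23, adjusted p = 1.52e-13). *Ablim1*, an actin-binding protein in the lower stretch of chromosome 19, fell from 16.1 to 0.639 CPM (log2 change −4.64 ± 0.20, adjusted p = 1.61e-14).

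The largest gains in CPM among called genes, beside those of *Iapp*, *Ero1b*, *Ccnd2* and *Scg3*, included that of *Ttr*, transthyretin, which carries thyroxine and is made in islets, at 1661, 1611, 1249 and 1467 CPM in Scr and 4659, 4371, 3668 and 3547 CPM in ZIP (log2 change 1.44 ± 0.28, adjusted p = 2.97e-04). The largest falls in CPM among called genes included *Ubr4*, a ubiquitin ligase, at 4970.2, 5049, 4456 and 4124 CPM in Scr and 3288, 3284, 2440.3 and 3310.3 CPM in ZIP (log2 change −0.59 ± 0.13, adjusted p = 0.00142), a call lost without Scr 1 (−0.56), Scr 2 (−0.55) or ZIP 3 (−0.49). *Papss2*, which makes the sulfate donor of the cell, was at 2385, 2126, 2294 and 2124 CPM in Scr and 1500.4, 1379, 1462 and 1082 CPM in ZIP (log2 change −0.72 ± 0.10, adjusted p = 5.90e-06). *Slc7a14*, an amino acid carrier of the lysosome, was at 1162, 1138, 1178 and 1068 CPM in Scr and 719.9, 704, 689 and 702 CPM in ZIP (log2 change −0.69 ± 0.07, adjusted p = 1.67e-08). *Slc7a14* lies 52.9 kb from *Cldn11*, which was lower too. Solute carriers as a list held 17 higher and 14 lower calls among 154, with *Slc5a9*, a sugar carrier (up, log2 change 2.82 ± 0.37, adjusted p = 1.84e-06), and *Slc24a3*, a sodium and calcium exchanger (up, log2 change 1.77 ± 0.11, adjusted p = 1.93e-11), among the largest. Kinesin, myosin, tubulin and microtubule genes held 13 higher and 11 lower calls among 136, with *Dclk2*, a kinase on microtubules, at 14.998, 10.7, 10.6 and 12.5 CPM in Scr and 0.622, 0.328, 0.589 and 0.83997 CPM in ZIP (log2 change −4.34 ± 0.33, adjusted p = 2.60e-10).

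Under cytokines, the same lines were compared on 8 libraries that did not enter the group means of the untreated comparison. Both comparisons came from the fit of all 24 libraries, so they shared its scaling and its estimate of the spread. ZIP+Cy against Scr+Cy gave 2227 called genes with the block kept (12.6%). Of the genes called without cytokines, 1565 (72.6%) were called in the same direction, which is 70.3% of those called with cytokines, and 0 were called in the opposite direction. Outside the block, 1369 genes were shared, which is 70.5% of 1941 and 68.5% of 2000. These libraries came from the same 2 clonal lines, so they repeat the measurement and not the making of the lines. The log2 fold change with cytokines was 2.73 for *Slc30a8*, 2.75 for *Slc2a2*, −9.42 for *Eef1a2*, −6.099 for *Slit1* and 5.13 for *Pcdhgb7*. The change differed with cytokines, by an interaction at an adjusted p value under 0.05, for 10 genes, of which 7 were called without cytokines. Of the genes named here these were *Ntn1* (4.42 without and 3.04 with cytokines), *Rbms1* (−4.67 and −2.93) and *Cebpd* (−3.58 and −1.51).

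**Figure D5:**
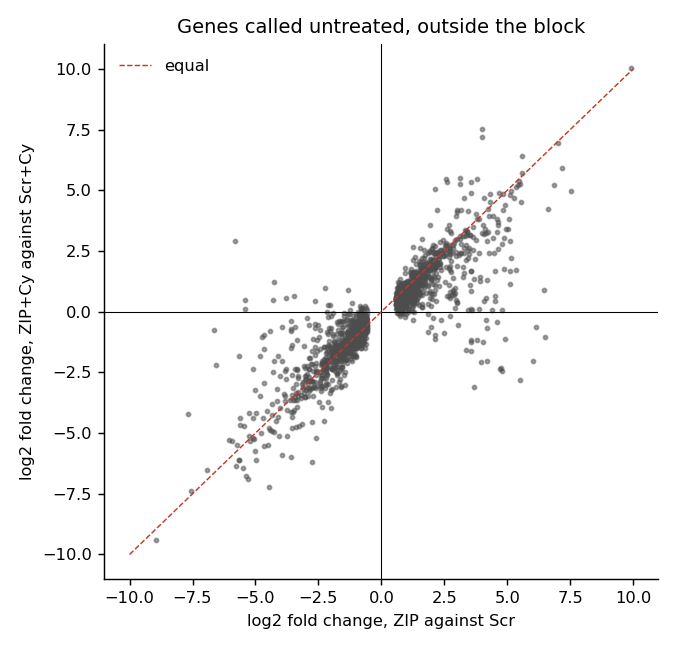
Log2 fold change of ZIP against Scr without cytokines (horizontal axis) and of ZIP+Cy against Scr+Cy (vertical axis) for the 1941 genes called without cytokines outside the distal chromosome 9 block, 1 point per gene, with a dashed line where both are equal. Of these genes, 96.8% had the same sign in both comparisons, whose group means share no library but come from 1 fit.

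Genes that the study followed by PCR were chosen on these samples, so their directions are not independent evidence. Outside the block, *Eya1*, *Rest* and *Perp*, described above, were lower, and so was *Brsk2*, a kinase of polarity and secretion, at 2.401, 1.52, 1.5002 and 1.89 CPM in Scr and 1.02, 1.06, 1.27 and 1.08 CPM in ZIP (log2 change −0.72 ± 0.21, adjusted p = 0.012), which was not called without Scr 1 (−0.56). *Glrx*, a glutaredoxin, was at 91.1 ± 3.76 CPM in Scr and 126 ± 10.2 CPM in ZIP (log2 change 0.47 ± 0.07, adjusted p = 1.87e-05) and *Nrg1*, an ERBB ligand, at 2.61 ± 0.623 CPM in Scr and 3.92 ± 0.568 CPM in ZIP (log2 change 0.58 ± 0.18, adjusted p = 0.0181), just under the fold limit. *Sort1* and *Mapt* had log2 fold changes of 0.07 and 0.27 and were not called. Within the block, *Acvr2b*, an activin receptor, was at 15.6, 12.3, 12.7 and 15.5 CPM in Scr and 44.7, 34.5, 42.9 and 27.2 CPM in ZIP (log2 change 1.41 ± 0.12, adjusted p = 1.02e-09). *Gpx1*, a glutathione peroxidase, was at 83.4, 82.5, 73.04 and 65.5 CPM in Scr and 115, 128, 104 and 122 CPM in ZIP (log2 change 0.62 ± 0.08, adjusted p = 1.74e-06), a call lost without Scr 4 (0.56) or ZIP 2 (0.58). Both lie among genes of which 95.9% at 1 CPM or more were above 0, as does *Myrip*.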

How the data were processed

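RNA from 8 MIN6 libraries (4 Scr, 4 ZIP, no cytokines) was compared within a fit of all 24 libraries, grouped by their labels. According to the methods and the submitters' processing notes, the authors ran FastQC on paired-end reads, used STAR to align to mm10 and assigned reads to RefSeq transcripts in Partek Flow. The notes give STAR 2.7.8a and Partek 11.0.24.0204, and the methods give other versions. The authors deposited estimated counts per gene that were not normalized, after dropping genes whose total was under 10 reads, and 30.3% of these values were not whole. They also deposited a normalized signal, not used here. Whether counting used strand is not given in the sources used here, so antisense pairs, overlapping genes and near-identical copies could share reads.

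Estimated counts were rounded. A model with 6 group means was fitted in edgeR 4.0.16 (R 4.3.3, limma 3.58.1) with TMM scaling and tested by quasi-likelihood for 17696 genes. Calls needed a 1.5-fold difference and a Benjamini-Hochberg adjusted p under 0.05. The standard error is the log2 fold change divided by the square root of F. A line with 3 reads or fewer in all 4 libraries was set at 3 reads per library for a lower bound, which covers counting error only. Depth was 28032255 to 36406136 assigned reads. The script was tested on simulated data.

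The distal chromosome 9 block is the run of 10 Mb windows up to the chromosome end that hold at least 10 genes at 10 CPM or more, 75% or more of them above 0 and their median log2 difference at 0.3 or more. Gene positions were those deposited with the counts. The 3′ UTRs and the positions of seed sites came from GENCODE M21, and mature microRNAs from RefSeq. Genes of 58 lists were counted in each direction outside the block. The named genes were the 12 largest rises and 12 largest falls among called genes without overlap of the libraries and with at least 5 CPM in the higher line, the 5 largest rises and 5 largest falls in CPM among called genes, up to 4 called members of each list with at least 1 CPM, the 4 largest rises of the block, the genes followed by PCR, *Irak1* and *Traf6*. Predicted genes, clones and pseudogenes were left out. Some genes that this rule names are not reported here. Cell type markers were fixed apart. Members and lists were chosen with earlier results of these data known.

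The alternatives were DESeq2 1.42.0, its size factors, TMM without the block, filterByExpr, a fit of the 8 libraries, a replicate block, the thresholds of the study, no fold limit, other definitions of the block, the longer seed site, genes at 1 CPM or more, and each library left out in turn. Fits without both replicates 1, and without ZIP 4 as well, were added after seeing the data.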

Additional observations from a re-analysis of the deposited data

Results flagged for a closer look

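Of 442 groups of 4 libraries (221 named genes in each line), 22 held 1 library far from the other 3, where the gap to the nearest library, as a share of the range, passed Dixon's limit for 4 samples. This limit marks about 1 in 20 groups when values are normal and groups are not selected. The named genes were selected on these same libraries, so the number cannot be set against chance.

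In Scr, replicate 1 was high for *Doc2b* (2.21 CPM, the others 0.906 to 0.991), *Sfrp5* (4.02, others 0.867 to 1.09), *Cdkn1c* (3.02, others 2.33 to 2.42), *Zfp991* (0.216, others 0 to 0.0313), *Slc9a9* (1.62, others 0.517 to 0.619) and *Glrx* (96.7, others 88.5 to 89.7). Replicate 2 was low for *Lrrtm1* (1.64 CPM, others 2.37 to 2.48), replicate 3 was high for *Psmb8* (11.8 CPM, others 8.497 to 8.74), and replicate 4 was the single library with a read of *Serpinb1c* (0.0619 CPM).

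In ZIP, replicate 1 was high for *Msn* (1.79 CPM, others 0.217 to 0.328), *Ccnd2* (3363, others 2781 to 2833), *Spred1* (4.50, others 1.34 to 1.55), *Apoe* (4.13, others 0.620 to 0.992) and *Tubb4a* (3.29, others 0.202 to 0.365). Replicate 3 was low for *Ubr4* (2440.3 CPM, others 3284 to 3310.3) and *Dync1i1* (0.341, others 0.605 to 0.622), and high for *Cplx1* (10.9, others 8.30 to 8.68) and *Adcy7* (7.5005, others 6.73 to 6.85). Replicate 4 was high for *Serpina3f* (7.36 CPM, others 0 to 0.802), *Psmb8* (10.5, others 2.74 to 3.44), *Card10* (0.739, others 0.434 to 0.476) and *Mest* (4.74, others 2.60 to 2.92). Replicate 1 of ZIP also had the highest sum of fibroblast and Schwann cell markers, 88.3 CPM, and replicate 4 the highest sum of interferon-stimulated genes, 1239 CPM. Their part in these values was not tested.

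The difference between ZIP and Scr changed with cytokines, by the interaction in the edgeR fit, for 3 named genes. The log2 fold change of *Ntn1* was lower with cytokines by −1.38 (adjusted p = 0.000896), that of *Rbms1* higher by 1.74 (adjusted p = 0.0178) and that of *Cebpd* higher by 2.07 (adjusted p = 0.0124).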

How the results depend on the processing

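The number of called genes stayed within 1.5 times its value of 2155 under every alternative but one. It was 2131 with DESeq2, 2162 with size factors, 2199 with TMM without the block, 2055 with filterByExpr, 2005 in the fit of 8 libraries, 2634 at an unadjusted p, 2021 to 2153 with each library left out, 1980 without both replicates 1 and 1820 without ZIP 4 as well. With no fold limit it was 5013 (2396 higher, 2617 lower). Outside the block, that setting gave 4754 (2149 higher, 2605 lower) in place of 1941, and the others gave 1609 to 2405. With all of chromosome 9 set aside 1864 genes were called, with every moving stretch set aside 1796, and with 5 Mb windows 1924. With no fold limit, 3591 genes were shared with the comparison under cytokines, in place of 1565. Under the other scalings the median of all genes stayed between −0.01 and 0.02. The median of genes with a seed site stayed within the spread between libraries with the longer site and with genes at 1 CPM or more.

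The labels do not say what libraries with the same replicate number and P tag share. Libraries with the same number deviated from their group means with correlations of 0.563, 0.049, 0.202 and 0.175 over 14535 genes, and replicates 2, 3 and 4 of Scr matched another number of ZIP best, so no pairing was taken from them. A replicate block called 2263 genes in the fit of 24 libraries and 2082 in that of 8 (2047 and 1867 outside the block).

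Of 3757 values of named genes under the alternatives, 3652 kept their direction and side of the threshold, 93 (28 genes) lost the call and 11, all of *Nrg1*, gained it. *Traf6*, which was not called, changed sign to −0.022 without ZIP replicate 3, in a range of −0.022 to 0.063 over the libraries left out. Of 580 list counts, 65 moved by over 1.5 times, mostly counts of 5 or fewer. Genes with few reads limit the comparison, since 140 called genes were at the floor in Scr and 125 in ZIP.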
